A study of Rattus norvegicus with 6 samples.

Results

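N-linked glycosylation attaches a preassembled sugar tree to asparagines of proteins entering the endoplasmic reticulum (ER), and 46 genes of this pathway were followed in INS-1E, an insulin-secreting cell line from a rat insulinoma. The genes were the rows of the deposited table, which lists 19289 features, that carry the KEGG entry for N-glycan biosynthesis, without the dolichol-phosphate-mannose synthase genes Dpm1, Dpm2 and Dpm3. The rule that picks them uses annotation and no measured value, but it was set with earlier results of these data known. The sugar tree is built on the lipid dolichol, first on the cytosolic and then on the luminal face of the ER membrane, and is moved to the protein by the oligosaccharyltransferase. Glucosidases and mannosidases of the ER and Golgi then trim it, which lets lectin chaperones follow folding, and Golgi transferases build branches on the trimmed core. In mouse beta cells such branches are known to hold the glucose transporter GLUT2 at the cell surface. By role, 16 of the genes serve assembly on dolichol, 7 encode oligosaccharyltransferase subunits, 10 serve ER and Golgi trimming and 13 add branches or caps after trimming.

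Polyadenylated RNA was sequenced from 3 libraries of cells kept with uric acid for 24 hours and from 3 libraries of untreated cells, to compare the transcripts of exposed and unexposed cells. All 6 came from the same line under the same protocol. No dose of uric acid and no vehicle are named in the labels, which also leave unsaid whether each replicate was its own culture, so the p-values reflect no more than the variation among these libraries, which may be technical. Summed estimated counts ranged from 41191819 to 48875962 in the uric acid libraries and from 47858248 to 59092982 in the untreated libraries, and the 46 genes held 0.608 to 0.643% of them with uric acid and 0.667 to 0.685% in untreated cells. The part of depth in any result was not tested. All 8 beta-cell markers had a mean of at least 1 FPKM (fragments per length of transcript and size of library, the authors' unit), with summed levels of 72895 to 85234 FPKM with uric acid and 74171 to 88150 FPKM untreated, most of it from the insulin genes Ins1 and Ins2. Of these markers Mafa, a transcription factor of mature beta cells, fell to 279.7, 254 and 313 FPKM with uric acid, against 400, 369.7 and 398 FPKM untreated (log2 fold change -0.46 ± 0.08, adjusted p = 0.0129 in edgeR). Leaving out uric acid library 1 (0.071) or untreated library 1 (0.0564) ended that call. The other 7 did not pass: Pdx1 and Nkx6-1 were lower without overlap (log2 fold changes -0.26 and -0.16), Slc2a2, the gene of the glucose transporter GLUT2, was higher without overlap (0.23, adjusted p = 0.0906 in edgeR), and Ins1, Ins2, Iapp and Chga overlapped. The part of these marker differences in the results that follow was not tested. Of 11 markers of other pancreatic cells, 6 were matched by symbol, none of them at 0 in every library, 1 (Gcg, glucagon) reached a mean of 1 FPKM, and their summed level was 8.76 to 11.3 FPKM with uric acid and 6.46 to 11.5 FPKM untreated. In such bulk libraries, fewer cells of a kind and less RNA per cell cannot be told apart.

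Mgat2 was the 1 gene of the pathway that passed the test. It encodes the Golgi N-acetylglucosaminyltransferase that starts the second branch and so commits a hybrid glycan to the complex type. Its message stood at 10.5, 8.87 and 9.67 FPKM in the uric acid libraries, against 15.5, 15.1 and 15.1 FPKM in the untreated libraries. The groups did not overlap, and the untreated libraries lay close together while uric acid library 2 was the lowest. Mgat2 fell by 36.4% of the mean FPKM, and its log2 fold change was -0.65 ± 0.08 (SE; 95% interval -0.84 to -0.46), with an adjusted p of 0.0029 in edgeR's quasi-likelihood test with Benjamini-Hochberg adjustment over all 12460 tested features. The values rest on 1543, 1106 and 1329 estimated counts with uric acid and 2785, 2391 and 2196 untreated. The call held in all 15 alternatives run, leaving out any 1 library included (adjusted p from 3.85e-09 with DESeq2 to 0.0249 without untreated library 2).

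Mgat2 is ENSRNOG00000004234 on the plus strand of chromosome 6, from 91476698 to 91479183 in the deposited table (genome build: not given in the sources used here), and no other listed feature overlaps it. Its promoter window from RefSeq (build GRCr8, chr6:93392166-93392465, plus strand, 250 bases before and 50 after the annotated gene start) is shown because Mgat2 carries the called change, with the bases from the gene start on in capitals. The windows of Alg1 (chr10:10863190-10863489, minus strand) and Man1b1 (chr3:28541841-28542140, plus strand) are shown because they hold a motif described next, which the capitals mark there.
Mgat2: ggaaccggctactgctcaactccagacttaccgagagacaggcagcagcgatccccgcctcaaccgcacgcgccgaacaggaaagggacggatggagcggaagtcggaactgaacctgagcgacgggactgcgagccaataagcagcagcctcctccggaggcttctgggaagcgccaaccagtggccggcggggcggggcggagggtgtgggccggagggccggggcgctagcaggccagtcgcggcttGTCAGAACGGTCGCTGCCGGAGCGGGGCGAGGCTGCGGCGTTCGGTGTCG
Alg1: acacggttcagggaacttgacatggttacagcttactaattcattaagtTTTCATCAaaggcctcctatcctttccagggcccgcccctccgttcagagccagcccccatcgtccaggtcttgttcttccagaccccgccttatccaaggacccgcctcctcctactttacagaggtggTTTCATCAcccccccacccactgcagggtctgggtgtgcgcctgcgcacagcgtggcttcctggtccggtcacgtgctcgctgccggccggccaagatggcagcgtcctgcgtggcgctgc
Man1b1: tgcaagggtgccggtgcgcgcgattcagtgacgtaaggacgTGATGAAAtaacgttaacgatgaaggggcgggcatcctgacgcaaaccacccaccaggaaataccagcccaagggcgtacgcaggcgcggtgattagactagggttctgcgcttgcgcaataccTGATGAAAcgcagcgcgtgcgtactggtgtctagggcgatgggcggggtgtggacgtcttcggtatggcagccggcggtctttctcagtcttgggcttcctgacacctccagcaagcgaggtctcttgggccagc

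The motifs searched, on both strands of these 300-base windows, were the ER stress element ERSE (CCAAT, then 9 free bases, then CCACG), ERSE-II (ATTGG, then 1 free base, then CCACG), the core ACGTGG of the unfolded protein response element, and TGATGNAA, the pattern of the C/EBP-ATF response element at which ATF4 is known to bind. A window was found for 40 of the 46 genes by symbol. None of these 40 held ERSE or ERSE-II, which occur in 0.0765% and 0.0546% of all 27457 windows. At such shares a match in 40 windows is unlikely in any list, so their absence says little about the pathway. The core ACGTGG was found in 4 of 40 windows (10%, against 8.1% of all windows), those of Ganab, Dolk, Alg6 and Mgat4d. The pattern TGATGNAA was found in 2 of 40 (5%, against 3.82%), Alg1 and Man1b1, each of which holds it at 2 places, and no match overlapped another motif. The Mgat2 window held none of the 4 motifs. Alg1 had a log2 fold change of 0.08 (adjusted p = 0.579 in edgeR) and Man1b1 one of 0.05 (adjusted p = 0.674 in edgeR), so neither of the genes with the TGATGNAA pattern passed the test. The median GC content of the 40 windows was 62.3%, against 52.3% over all windows, and that of Mgat2 was 69.0%. All windows were taken whether or not their genes were expressed in these cells, so the sets compared here are unlike.

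Across the pathway, 43 of the 46 genes reached a mean of 1 FPKM over the 6 libraries and were tested. With uric acid 1 fell and none rose at an adjusted p under 0.05 (edgeR), where 2.99% of all tested features fell and 4.99% rose (7.98% in either direction). The share that fell, 2.33%, was near that background. Values of the 43 genes, Mgat2 included, leaned to the lower side. Of them, 30 of 43 log2 fold changes were negative (69.8%, against 49.8% of all tested features), with a median of -0.10 against 0.001. Groups did not overlap in 14 genes that were lower with uric acid and 1 that was higher, where 14.2% and 16.8% of all tested features were lower and higher in that way. At an unadjusted p under 0.05 there were 13 genes lower and 1 higher, where the shares over all features were 12% and 13.7%. These counts are descriptions of the list, to which no test of its own was applied. The counts of lower genes include Mgat2, and both Mogs and LOC103692171, rows that may be copies of the same gene. The standard errors of the 43 genes had a median of 0.09 on the log2 scale, and the smallest change called among all features was 0.21. Some larger values, such as -0.48 for Alg10, were not called.

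**Figure D1:**
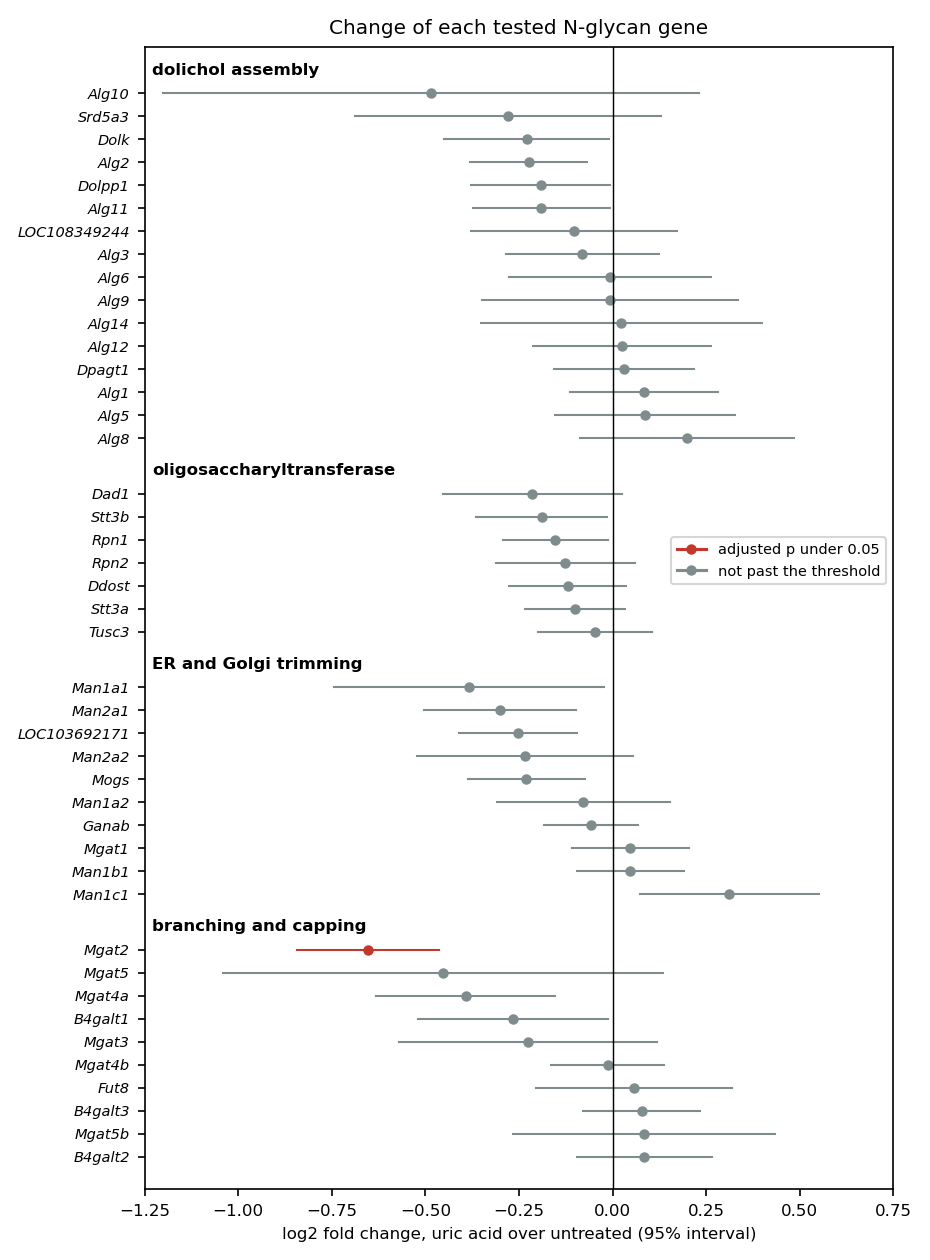
Log2 fold change of each of the 43 tested genes, uric acid over untreated (x axis), by role, with its 95% interval from the edgeR fit over 3 libraries a group. Mgat2, at -0.65, is the 1 gene past the threshold, and 30 of the 43 points lie left of 0.

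The levels of the pathway differed far more between genes than between groups. Per transcript length, the oligosaccharyltransferase held most of it: its 7 genes made up 61.3, 60.8 and 59.4% of the summed FPKM of the 46 genes in the uric acid libraries and 59.4, 62.1 and 62.2% in the untreated libraries. Assembly on dolichol held 13.6 to 14.3% with uric acid and 13.5 to 14.7% untreated, trimming 16.7 to 18.0% and 16.4 to 17.6%, and branching and capping 8.15 to 8.52% and 7.73 to 8.36%. The ranges of both groups overlapped in each of the 4 roles. Median mean levels were 86.9 FPKM for oligosaccharyltransferase subunits, 19.2 FPKM for trimming, 13.6 FPKM for dolichol assembly and 9.59 FPKM for the 10 tested branching and capping genes.

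**Figure D2:**
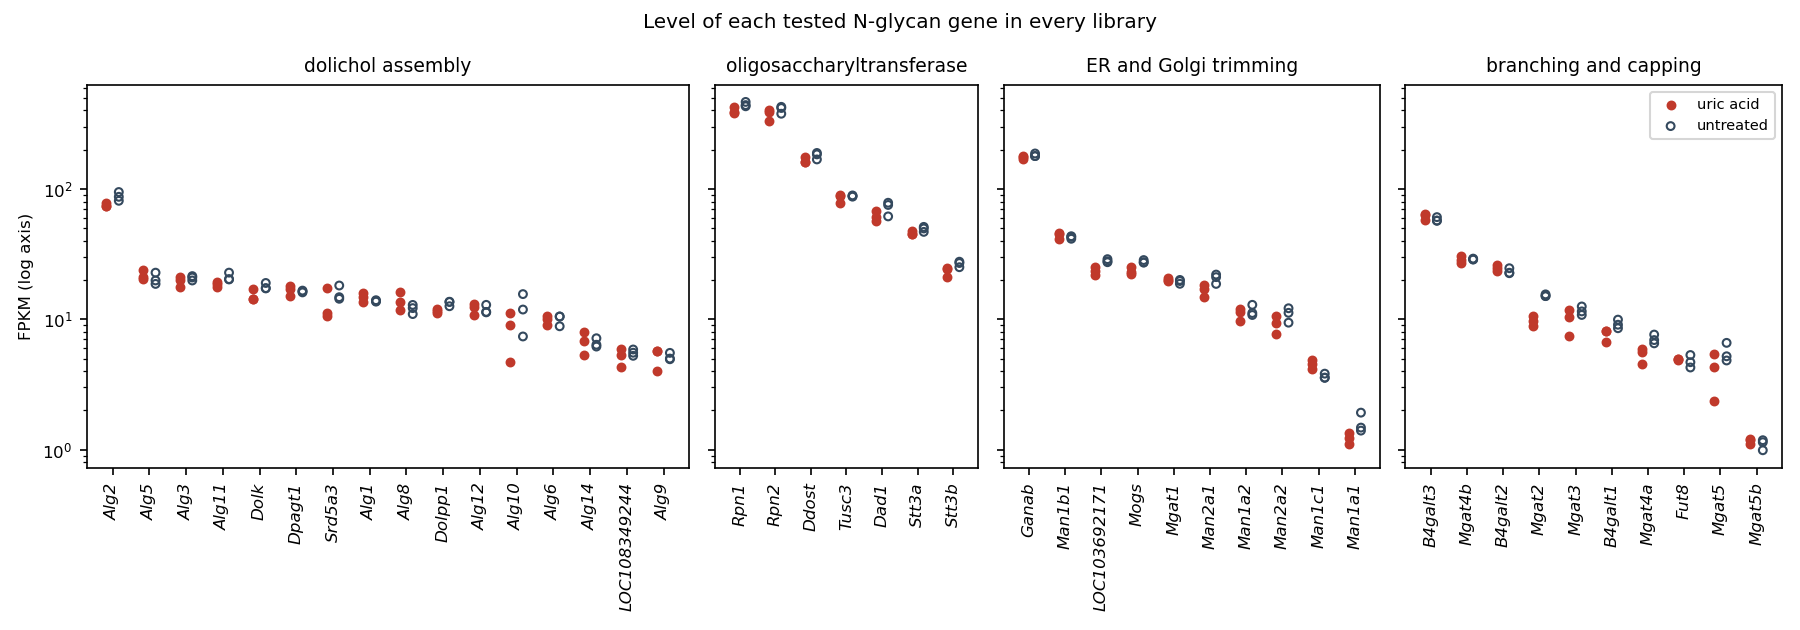
FPKM of each tested gene in every library (log axis), grouped by role and ordered by level, with uric acid libraries as filled and untreated libraries as open points. Rpn1 is highest at a mean of 423 FPKM over the 6 libraries and Mgat5b lowest at 1.14, and the groups lie clearly apart in Mgat2.

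None of the 16 dolichol assembly genes passed the test, and the class had a median log2 fold change of -0.043. At an unadjusted p under 0.05 in edgeR 4 were lower (25%) and none higher, where 12% and 13.7% of all tested features were so. DESeq2 called 1 lower, beside 793 of all 12460 features. Alg2, which adds mannoses on the cytosolic face, was the most abundant of them. It stood at 73.5, 73.9 and 77.7 FPKM with uric acid and at 94.7, 87.1 and 81.1 FPKM untreated. The groups did not overlap, yet the log2 fold change of -0.22 ± 0.07 had an adjusted p of 0.0818 (edgeR), and it passed with DESeq2 (0.0334). Dpagt1, which attaches the first sugar to dolichol phosphate and is the target of tunicamycin, stood at 18.0, 17.02 and 15.1 FPKM with uric acid and 16.1, 16.6 and 16.4 FPKM untreated. Its groups overlapped, with a log2 fold change of 0.03 and a 95% interval of -0.16 to 0.22.

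The next cytosolic steps also stayed below the threshold. LOC108349244, described in the table as ALG13, and Alg14 form the enzyme that adds the second sugar, and stood at means of 5.17 ± 0.84 and 6.69 ± 1.37 FPKM with uric acid and 5.55 ± 0.31 and 6.57 ± 0.52 FPKM untreated (SD, n = 3 each). Alg1, which adds the first mannose, had 14.7 ± 1.15 FPKM with uric acid and 13.8 ± 0.17 FPKM untreated. Alg11, which adds the last cytosolic mannoses, had 19.3, 17.7 and 18.6 FPKM against 22.8, 20.3 and 20.2 FPKM untreated, without overlap (log2 fold change -0.19, adjusted p = 0.18 in edgeR). Alg1 overlaps Eef2kmt on the other strand and, since no source used here says whether counting used strand, reads of such pairs cannot be told apart. Eef2kmt had a mean of 502.5 estimated counts beside 1546 for Alg1. Overlaps with a listed feature were found for 7 of the 46 genes, and for 5 the partner lies on the opposite strand.

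The luminal mannosyltransferases Alg3, Alg9 and Alg12 had log2 fold changes of -0.08, -0.01 and 0.03. Alg3 stood at 19.6 ± 1.74 FPKM with uric acid and 20.7 ± 0.81 FPKM untreated (SD, n = 3 each), with overlapping groups. The glucose steps did not pass either: Alg5, which makes the glucose donor dolichol-phosphate-glucose, had a log2 fold change of 0.09, and the glucosyltransferases Alg6, Alg8 and Alg10 had -0.01, 0.20 and -0.48. Alg10, which adds the last glucose recognised by the oligosaccharyltransferase, was the most scattered gene of the pathway. It stood at 8.99, 4.73 and 11.2 FPKM with uric acid and 15.6, 11.9 and 7.38 FPKM untreated, with a standard error of 0.32 on the log2 scale. Uric acid library 2 and untreated library 3 were the lowest of their groups, and the groups overlapped.

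Among genes of the carrier lipid, Dolk and Dolpp1 had groups that did not overlap. Dolk, dolichol kinase, stood at 14.3, 17.2 and 14.2 FPKM with uric acid and 19.0, 17.3 and 17.3 FPKM untreated, and Dolpp1, which recycles dolichol pyrophosphate, at 11.2, 11.6 and 12 FPKM against 13.6, 12.6 and 13.6 FPKM. Both had an adjusted p of 0.18 (edgeR), with log2 fold changes of -0.23 and -0.19. Srd5a3, a reductase of dolichol synthesis, was high in uric acid library 1 at 17.3 FPKM and lower in libraries 2 and 3 at 10.6 and 11.1 FPKM, against 14.4, 18.2 and 14.8 FPKM untreated. The median of the class moved with single libraries: leaving out uric acid library 2 gave -0.13, leaving out uric acid library 3 gave 0.0058, and leaving out uric acid library 1 or untreated library 1 gave -0.084.

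All 7 oligosaccharyltransferase subunits had negative log2 fold changes, where 49.8% of all tested features did. The values ran from -0.21 to -0.05 with a median of -0.13, and none of the subunits passed the test. At an unadjusted p under 0.05 in edgeR 2 were lower (28.6%) and none higher, where 12% and 13.7% of all tested features were so. DESeq2 called none of the subunits. Rpn1, a ribophorin that brings substrates to the catalytic subunit, stood at 426, 385 and 393 FPKM with uric acid and 431, 465 and 440 FPKM untreated. Uric acid library 1 lay just below untreated library 1, so the groups did not overlap by a small margin, and the log2 fold change of -0.15 ± 0.06 had an adjusted p of 0.163 (edgeR). The other ribophorin, Rpn2, stood at 402, 387 and 333 FPKM with uric acid and 378, 427 and 418 FPKM untreated, with overlap. Rpn2 overlaps Mroh8 on the other strand, which had a mean of 308 estimated counts beside 59821 for Rpn2.

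The catalytic subunits come in separate complexes: STT3A acts while the chain enters through the translocon, and STT3B also acts afterwards on skipped sites. Stt3a stood at 47.9, 45.1 and 44.9 FPKM with uric acid and 49.8, 51.2 and 46.9 FPKM untreated. Stt3b stood at 24.3, 21.0 and 24.8 FPKM with uric acid and 27.7, 27.0 and 25.1 FPKM untreated. The groups of Stt3b did not overlap, while those of Stt3a did. The log2 fold changes were -0.10 (95% interval -0.24 to 0.03) and -0.19 (-0.36 to -0.01), with adjusted p of 0.32 and 0.165 in edgeR. Stt3a exceeded Stt3b 1.97, 2.15 and 1.81 times with uric acid and 1.80, 1.89 and 1.87 times untreated, so their balance overlapped between groups. Stt3b overlaps Osbpl10 on the other strand, which had a mean of 484 estimated counts beside 5938 for Stt3b. The part of this overlap in the values of Stt3b was not tested. Tusc3, an oxidoreductase subunit of the STT3B complex, stood at 85.5 ± 6.09 FPKM with uric acid and 88.3 ± 0.93 FPKM untreated (SD, n = 3 each). Its alternative Magt1, which lacks the KEGG entry in the table, had 15.2 ± 2.04 and 14.7 ± 0.98 FPKM, and Tusc3 exceeded Magt1 4.97 to 6.80 times with uric acid and 5.71 to 6.49 times untreated.

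Dad1 and Ddost, core subunits, had the same order of libraries in untreated cells, with library 1 lowest. Dad1 stood at 67.4, 61.1 and 57.3 FPKM with uric acid and 61.6, 75.4 and 78.4 FPKM untreated, and Ddost at 176, 162 and 161 FPKM against 169, 184 and 189 FPKM. Their log2 fold changes were -0.21 and -0.12, with adjusted p of 0.241 and 0.316 in edgeR, and uric acid library 1 lay within the untreated range for both. Of the subunits without the KEGG entry that were matched by symbol, Ostc had a log2 fold change of -0.15, Ost4 of -0.12, Krtcap2 of -0.09 and Magt1 of 0.04. None of these 4 passed the test.

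Trimming genes had a median log2 fold change of -0.15, and of 10 none passed the test. At an unadjusted p under 0.05 in edgeR 4 were lower and 1 higher, and DESeq2 called 3 lower (793 of all 12460 features). The shares over all features at that unadjusted p were 12% and 13.7%. Groups did not overlap in 5 genes that were lower and 1 that was higher with uric acid, where 14.2% and 16.8% of all tested features were so. The first glucose is removed by glucosidase I, for which the table has separate rows under Mogs and LOC103692171, both described as mannosyl-oligosaccharide glucosidase and both on the plus strand of chromosome 4 (113948514 to 113951847 and 114814056 to 114817465). Mogs stood at 25.4, 22.4 and 23.1 FPKM with uric acid and 27.2, 28.5 and 27.4 FPKM untreated. LOC103692171 stood at 25.1, 22.0 and 23.6 FPKM against 27.9, 28.9 and 27.4 FPKM. The rows lay within 1 FPKM of each other in every library, and their reads may have been split between copies of the same gene, so they are not independent. Each count of lower trimming genes above includes both rows. Log2 fold changes were -0.23 ± 0.07 and -0.25 ± 0.07 (adjusted p = 0.0751 and 0.0584 in edgeR), and both passed with DESeq2 (0.0359 and 0.02).

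Ganab, the catalytic subunit of glucosidase II, was the most abundant trimming gene at 178, 169 and 177 FPKM with uric acid and 187.1, 178.8 and 178.8 FPKM untreated. Its groups did not overlap, by a margin of under 1 FPKM, and the log2 fold change of -0.06 had an interval of -0.18 to 0.07. Prkcsh, its partner subunit, lacks the KEGG entry and had 226 ± 22.0 FPKM with uric acid and 214 ± 8.15 FPKM untreated (SD, n = 3 each). Neither subunit passed the test.

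The mannosidases had log2 fold changes on both sides of 0, and none passed. Man1b1, which removes mannose in the ER and early Golgi, had 44.1 ± 2.46 FPKM with uric acid and 42.6 ± 0.98 FPKM untreated (SD, n = 3 each). Of the Golgi class I enzymes, Man1a2 stood at 11.4, 9.68 and 11.9 FPKM with uric acid and 12.9, 11.2 and 10.8 FPKM untreated, with overlap. Man1a1 was low at 1.23, 1.35 and 1.10 FPKM against 1.92, 1.40 and 1.48 FPKM (log2 fold change -0.38, adjusted p = 0.17 in edgeR). Man1c1, the third of this class, went the other way, at 4.18, 4.55 and 4.87 FPKM with uric acid and 3.57, 3.55 and 3.83 FPKM untreated. It was the 1 gene of the pathway that was higher without overlap, with a log2 fold change of 0.31 ± 0.11 and an adjusted p of 0.107 (edgeR).

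Golgi class II mannosidases remove the last mannoses before Mgat2 acts. Man2a1 stood at 18.3, 14.8 and 17.1 FPKM with uric acid and 22.0, 21.1 and 18.7 FPKM untreated, without overlap (log2 fold change -0.30 ± 0.09, adjusted p = 0.074 in edgeR, and 0.0239 with DESeq2). Man2a2 stood at 9.42, 7.77 and 10.7 FPKM with uric acid and 12.2, 11.2 and 9.42 FPKM untreated, with overlap. Uric acid library 2 was the lowest of all 6 for both. Mgat1, the transferase that starts the first branch and on whose product these mannosidases work, had 20.1 ± 0.44 FPKM with uric acid and 19.5 ± 0.68 FPKM untreated (SD, n = 3 each; log2 fold change 0.05, interval -0.11 to 0.20). Its level exceeded that of Mgat2 by 1.92, 2.22 and 2.13 times with uric acid and by 1.21, 1.33 and 1.31 times untreated. These ratios describe the fall of Mgat2 already given and add no separate test. Without uric acid library 2 the median of the trimming class was -0.08, and without untreated library 1 it was -0.10.

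**Figure D3:**
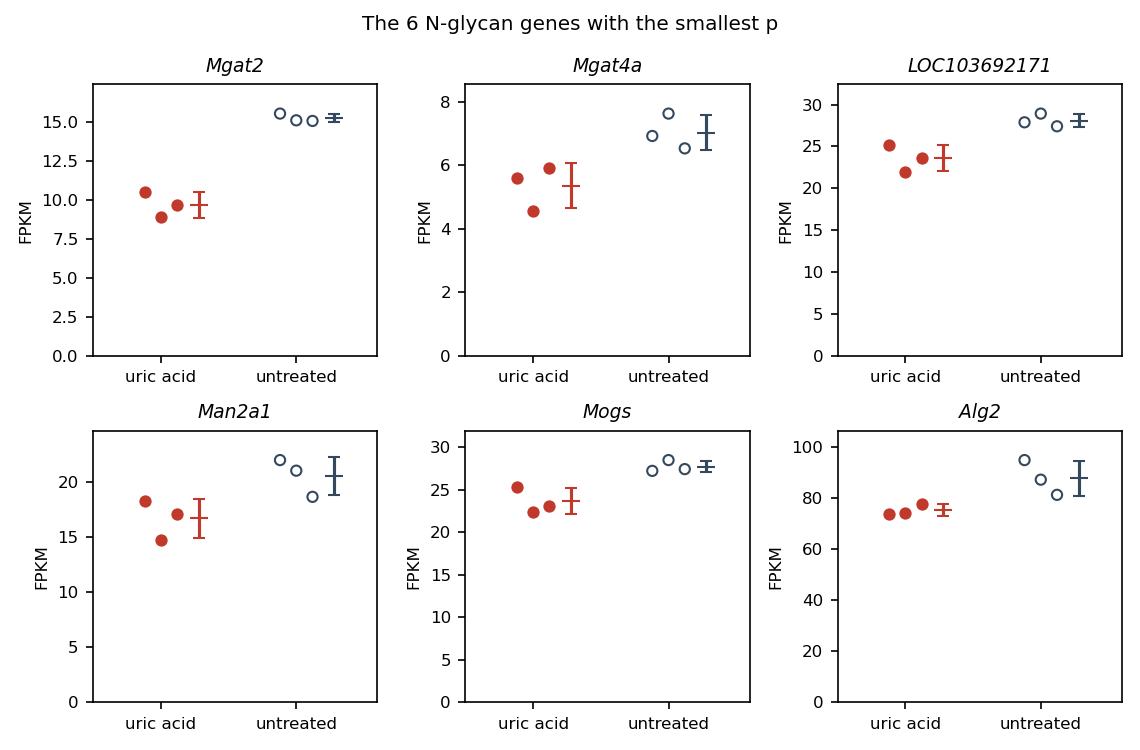
FPKM in each library (points) with the mean ± SD (bars, n = 3) for the 6 genes of the pathway with the smallest p, uric acid left of untreated, each axis starting at 0. All 6 lie lower with uric acid and without overlap, and relative to the level the distance is widest for Mgat2, the 1 gene past the threshold.

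Beyond Mgat2, the branching and capping genes gave no call, and their median log2 fold change was -0.12. Mgat4a, whose enzyme adds a further branch and is the one known from mouse beta cells to act on GLUT2, came closest. It stood at 5.602, 4.56 and 5.91 FPKM with uric acid and 6.93, 7.63 and 6.54 FPKM untreated. The groups did not overlap, and the log2 fold change of -0.39 ± 0.11 had an adjusted p of 0.0554 (edgeR). It passed with DESeq2 (0.01) and without uric acid library 3 (0.0365), and had 0.0853 to 0.218 with another library left out. Its paralog Mgat4b, which makes the same linkage, stood at 28.7 ± 1.81 FPKM with uric acid and 28.9 ± 0.25 FPKM untreated (SD, n = 3 each), with a log2 fold change of -0.01 (interval -0.17 to 0.14).

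Mgat5, which adds the branch that carries long sugar chains, stood at 4.33, 2.37 and 5.45 FPKM with uric acid and 6.59, 5.20 and 4.83 FPKM untreated, and Mgat3, which adds the bisecting sugar, at 10.5, 7.44 and 11.9 FPKM against 12.5, 11.5 and 10.8 FPKM. In both, uric acid library 2 was far below the other libraries and the groups overlapped. Fut8, the core fucosyltransferase, had 4.95 ± 0.08 FPKM with uric acid and 4.76 ± 0.53 FPKM untreated (SD, n = 3 each). The galactosyltransferase B4galt1 stood at 8.10, 6.68 and 8.17 FPKM with uric acid and 9.94, 9.08 and 8.54 FPKM untreated, without overlap (log2 fold change -0.27, adjusted p = 0.177 in edgeR). Its paralogs B4galt2 and B4galt3 had log2 fold changes of 0.09 and 0.08, and Mgat5b one of 0.08. The 3 genes below the filter were St6gal1, a sialyltransferase, at 0.306, 0.0836 and 0.416 FPKM with uric acid and 0.237, 0.218 and 0.25 FPKM untreated, and Mgat4c and Mgat4d, at no more than 0.0271 and 0.0696 FPKM in any library. The median of the class was -0.019 without uric acid library 2, and -0.22 at a filter of 5 FPKM, which tests fewer genes.

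**Figure D4:**
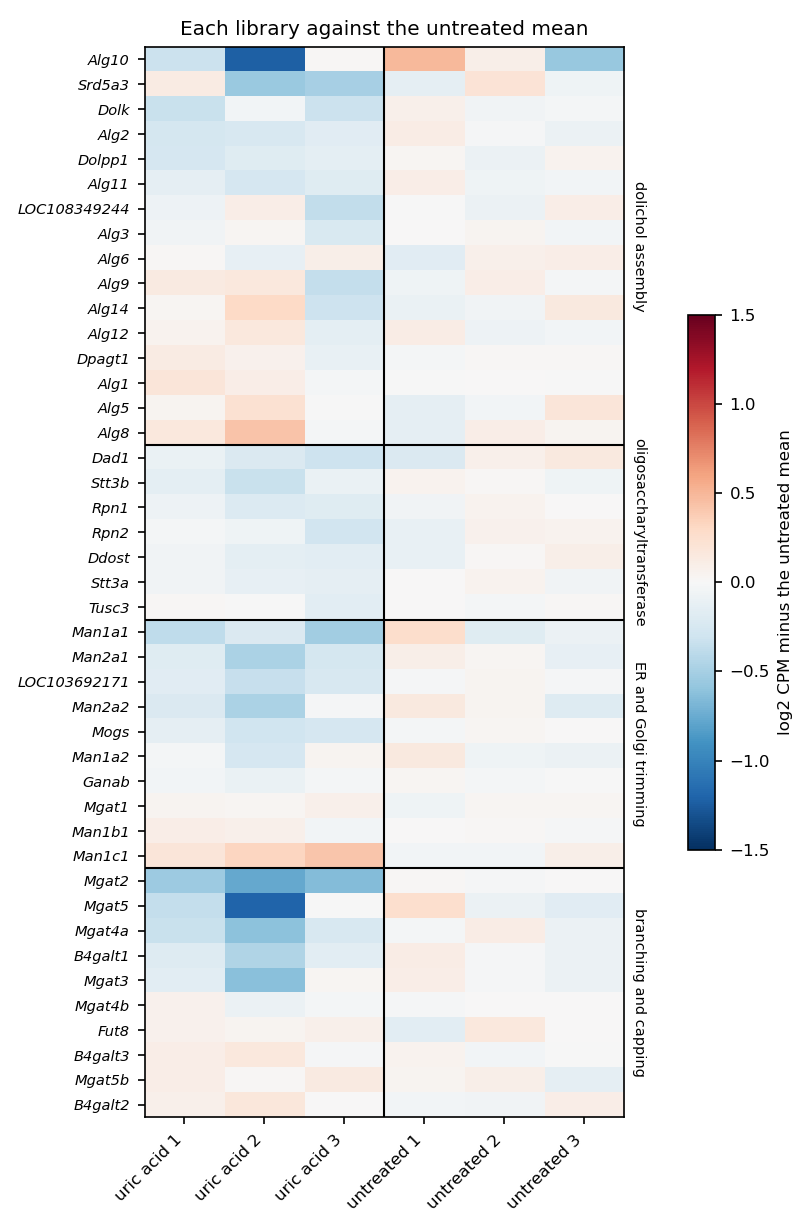
Each tested gene (rows, by role) in each library (columns), as the difference in log2 CPM (counts scaled to library size) from the mean of the untreated libraries, blue for lower and red for higher. Mgat2 is blue in all 3 uric acid libraries, and uric acid library 2 holds the darkest cells, at -1.22 for Alg10 and -1.20 for Mgat5.

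The uric acid libraries differed among themselves in which genes were low. Of the 43 tested genes, 17 had the lowest of all 6 values in uric acid library 2, 15 in library 3 and 2 in library 1, while 9 had it in an untreated library. The highest value lay in uric acid libraries 1, 2 and 3 for 5, 8 and 4 genes, and in untreated libraries 1, 2 and 3 for 15, 9 and 2. The median deviation from the untreated mean was 0.05 for dolichol assembly in uric acid library 2 and -0.15 in library 3. For branching and capping it was -0.27 in uric acid library 2 and -0.016 in library 3. Over all tested features it was 0.013 in uric acid library 2 and -0.0034 in library 3. Shares of all features with the lowest or highest value in each library are not given here. Uric acid library 2 was also the one with the fewest counts, and the part of this in these values was not tested.

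Some partner genes of the pathway outside the 46 did pass the test. Of 19 genes named for the same roles, 13 without the KEGG entry were matched by symbol and tested. Of these 13, 1 rose and none fell (7.69% higher), where 4.99% of all features rose and 2.99% fell. Manea, a Golgi endomannosidase that removes glucosylated mannose and so bypasses the glucosidases, stood at 4.02, 4.07 and 3.08 FPKM with uric acid and 2.43, 2.04 and 1.92 FPKM untreated. It rose by 0.80 ± 0.15 on the log2 scale (adjusted p = 0.0139 in edgeR). Its groups did not overlap. The Manea call was lost without untreated library 2 (0.0792) or 3 (0.0518) or uric acid library 1 (0.0645).

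Supply of the donors gave 1 call: of 12 genes of dolichol and mannose donor supply, Gmppb fell and none rose (8.33% lower, where 2.99% of all features fell and 4.99% rose). Gmppb makes GDP-mannose and overlaps Rnf123 on the other strand, with 2474 mean estimated counts there beside 1272 for Gmppb. It stood at 6.46, 5.25 and 6.84 FPKM with uric acid and 16.8, 15.8 and 12.4 FPKM untreated, and its call held in all 15 alternatives. None of these alternatives addressed the overlap with Rnf123, whose part in the values of Gmppb was not tested. The median of this list was 0.13, above 0. Pmm2, which feeds the same route, had a log2 fold change of 0.27 (adjusted p = 0.104 in edgeR), and Nus1, a subunit of the dolichol chain synthase, had -0.22 (0.0627).

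Of 17 tested genes of glycan-dependent folding and disposal, 1 fell and none rose (5.88% lower, where 2.99% of all features fell), with a median of -0.11. Engase, a cytosolic enzyme that cuts free glycans, stood at 2.76, 2.58 and 2.66 FPKM with uric acid and 4.92, 3.83 and 3.82 FPKM untreated. It fell by 0.65 ± 0.13 on the log2 scale (adjusted p = 0.0181 in edgeR). Leaving out untreated library 1 (0.0615) or 2 (0.0563) or uric acid library 1 (0.0669) ended the call. The mannosidase-like disposal factors Edem1 and Edem3 had log2 fold changes of -0.54 (adjusted p = 0.118 in edgeR) and -0.65 (0.0675), and the lectin chaperone Canx had -0.05 (0.646). Edem1, Edem2 and Edem3 are also counted among the genes with the same roles.

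Among 11 translocon partners of the oligosaccharyltransferase, 2 fell and none rose (18.2% lower, where 2.99% of all features fell), with a median of -0.14. Sec61a1, the pore subunit of the channel, stood at 139.7, 131 and 133 FPKM with uric acid and 168, 164 and 156 FPKM untreated, and fell by 0.27 ± 0.06 (adjusted p = 0.0231 in edgeR). Ssr1, a subunit of the translocon-associated protein complex, stood at 80.9, 69.7 and 73.1 FPKM with uric acid and 96.5, 97.0 and 88.2 FPKM untreated, and fell by 0.33 ± 0.07 (adjusted p = 0.0245 in edgeR). The groups of both genes did not overlap. The Sec61a1 call was lost without uric acid library 1 (0.0847) and without untreated library 1 (0.0818), 2 (0.123) or 3 (0.052). The Ssr1 call was lost without uric acid library 1 (0.052) and without untreated library 1 (0.0903) or 2 (0.127).

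**Figure D5:**
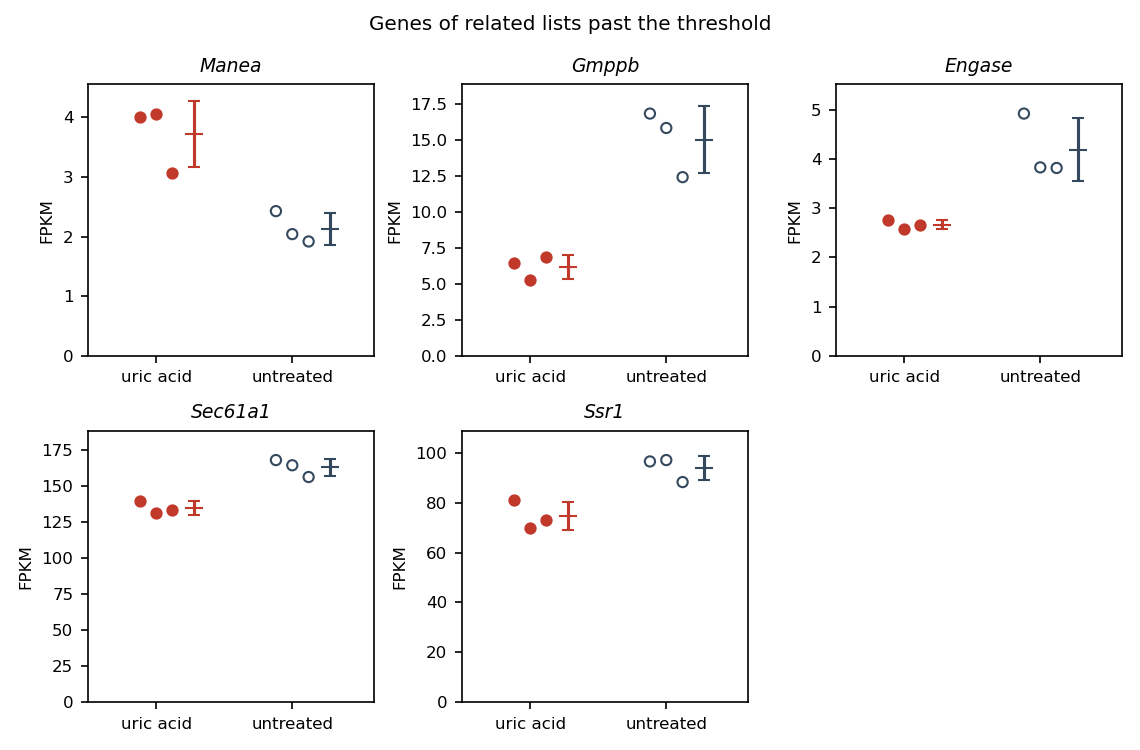
FPKM in each library (points) with the mean ± SD (bars, n = 3) for the 5 genes outside the 46 that passed the test in the related lists, uric acid left of untreated, each axis starting at 0. Manea lies higher with uric acid, and Gmppb, Engase, Sec61a1 and Ssr1 lower.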

How the data were processed

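Oligo-dT-selected RNA of INS-1E cells was sequenced in 6 libraries (uric acid 3, untreated 3), grouped by the sample titles. Per the file headers, the deposited table holds FPKM values and counts for each library. The deposited FPKM were scaled by the authors to transcript length and library total. The deposited count columns are estimated counts: whole numbers that grow with aligned bases rather than with whole reads. The tools named, per the submitters' processing notes, are StringTie 1.3.4d, HISAT2 2.0.4, cutadapt 1.9, edgeR and DESeq2, without roles or a genome build. No sample column was left unmatched.

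A mean FPKM of 1 or more was required, and features were tested with edgeR 4.0.16 (R 4.3.3; quasi-likelihood F test, TMM scaling, no covariate), on the counts as deposited, with a threshold of 0.05 on the Benjamini-Hochberg adjusted p over 12460 features, two-sided. Intervals are for the log2 fold change between groups, from its standard error and the degrees of freedom of that fit, and rest on the variation between libraries. The standard error was taken as the absolute log2 fold change over the square root of the F statistic. An exact permutation test of 3 libraries against 3 cannot go below p = 0.1, so single genes were compared only through fits across all features. The test was tested on simulated data. Alternatives were DESeq2 1.42.0, limma 3.58.1 on log2(FPKM + 1) and log2(FPKM + 0.1), other scaling, other filters, the replicate number as a block, and each library left out in turn. Counts divided by 4 were added after the data were seen. Genes named in full were those past the threshold and a fixed set of pathway steps; other genes were named after their values were seen. The genes and lists were chosen with earlier results of these data known. A gene of a related list is not reported here. Promoter windows are from RefSeq, build GRCr8.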

Additional observations from a re-analysis of the deposited data

How the results depend on the processing

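Mgat2 was called lower in all 15 alternatives and no gene of the pathway was called higher in any. With DESeq2 6 of the 43 tested genes were lower (Mgat2, Mgat4a, Man2a1, Mogs, LOC103692171 and Alg2). Of all 12460 features 972 were higher and 793 lower. Mogs and LOC103692171 may be copies of the same gene, so these are not 6 independent calls. With 1 library left out, 1 to 2 genes of the pathway were lower, 165 to 707 features were higher and 66 to 466 lower. Such fits have fewer samples. The medians of the classes then ranged from -0.13 to 0.0058 for dolichol assembly, from -0.17 to -0.095 for the oligosaccharyltransferase, from -0.18 to -0.08 for trimming and from -0.16 to -0.019 for branching and capping. The sign held across the alternatives for 33 of the 43 tested genes and changed in at least 1 for 10. The labels do not say whether the replicate numbers pair the libraries. The deviations of same-numbered libraries correlated at 0.068, -0.049 and -0.19 across genes, and those of differently numbered libraries at -0.23 to 0.26. These values, centred within groups of 3, cannot exclude pairing. With the replicate block 223 features were higher and 99 lower, Mgat2 was again the 1 gene of the pathway called, and the calls of Engase (adjusted p = 0.0549), Sec61a1 (0.0986), Ssr1 (0.0778), Ogt (0.0637), Chpf (0.0522), St3gal1 (0.0901), Pigs (0.124) and Hyal2 (0.0586) in edgeR were lost.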

Other observations

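Genes of other glycan routes were chosen after their values were seen, and are given as a description. The table's 9 other KEGG entries for glycan synthesis, breakdown and GPI anchors held 121 tested genes outside the 46, of which 8 fell (6.61%, against 2.99% of all tested features) and 2 rose (1.65%, against 4.99%), at a median log2 fold change of -0.03. The genes that fell were Chpf2, Chpf, Pomgnt2, Hs6st1, St3gal1, Pigs, Hyal2 and Engase, and those that rose were Ogt and Pigy. Most of these calls depended on single libraries. Without uric acid library 1 Chpf2 was the 1 gene still called and 9 calls were lost (adjusted p from 0.0518 to 0.109 in edgeR). Without untreated library 1 the calls of St3gal1, Pigs, Hs6st1, Hyal2, Engase and Pigy were lost (0.0538 to 0.139). Without untreated library 2 those of Chpf, St3gal1, Pigs, Hyal2, Engase, Ogt and Pigy were lost (0.0505 to 0.166), and without untreated library 3 those of St3gal1, Pigs, Hyal2, Ogt and Pigy (0.0518 to 0.0949). Pigs was also lost without uric acid library 2 (0.0585) or 3 (0.0571), and was called in 7 of 15 alternatives, St3gal1 in 6 of 15. Chpf2 and Chpf, which build the chondroitin chain, both fell. Chpf2 stood at 15.5, 13.6 and 16.3 FPKM with uric acid and 27.0, 26.5 and 24.2 FPKM untreated (log2 fold change -0.78 ± 0.08, adjusted p = 0.00119 in edgeR), without overlap and called in all 15 alternatives. Chpf stood at 19.5, 20.1 and 20.5 FPKM with uric acid and 26.7, 25.8 and 26.2 FPKM untreated (-0.39 ± 0.06, 0.00831), without overlap. Pomgnt2, which extends O-linked mannose, fell to 14.5, 14.3 and 15.6 FPKM with uric acid, against 21.1, 19.6 and 21.4 FPKM untreated (adjusted p = 0.00921 in edgeR). Ogt, which puts single sugars on cytosolic and nuclear proteins, rose to 11.4, 11.3 and 11.4 FPKM with uric acid, against 9.003, 9.07 and 7.81 FPKM untreated (adjusted p = 0.0162 in edgeR).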
